A study of Homo sapiens with 6 samples.

Results

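The mRNA levels of 10 tubulin genes were examined in cells labelled HepG2, with and without knockdown of ARHGEF2. The 10 genes (TUBA1A, TUBA1B, TUBA1C, TUBA4A, TUBB, TUBB2A, TUBB3, TUBB4B, TUBB6 and TUBG1) were chosen by name from the 27605 genes of the table, because the ARHGEF2 protein is held inactive on microtubules. HepG2 is a human liver cancer cell line. The control group (shNC, 3 libraries) carries a negative control hairpin and is labelled wild type, and the other group (shARHGEF2, 3 libraries) carries a lentiviral hairpin against ARHGEF2 and is labelled as its knockdown. Both groups received the same culture medium, and no drug is named for either. The labels do not say how many hairpins or cultures stand behind the 3 libraries of a group, so the p-values measure the spread between these libraries, which may be technical.

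Microtubules are hollow polymers of alpha- and beta-tubulin heterodimers, and gamma-tubulin sits in ring complexes that start new microtubules at the centrosome. Humans carry several genes (isotypes) for alpha- and for beta-tubulin, which differ most at the acidic tail at the end of the protein and in the tissues that use them. ARHGEF2, also called GEF-H1, is an exchange factor for the small GTPase RHOA. It is silent while bound to microtubules and becomes active when it is released from them. Tubulin mRNA is itself under control of the tubulin pool: when free dimers are in excess, the start of the nascent protein is recognised by TTC5 and the mRNA being translated is degraded.

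The start of the coding sequence is shown because this autoregulation reads the first residues of the protein. The sequences are those of the main coding transcripts in GENCODE 29 (GRCh38), and the capitals mark the start codon and the next codons, to base 12.
TUBA1B: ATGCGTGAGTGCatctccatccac
TUBA4A: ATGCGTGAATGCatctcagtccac
TUBB: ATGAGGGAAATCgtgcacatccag
TUBB2A: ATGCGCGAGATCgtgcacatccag
TUBB2B: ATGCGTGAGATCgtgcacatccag
TUBB3: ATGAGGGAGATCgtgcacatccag
TUBG1: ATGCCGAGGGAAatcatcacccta
TUBA1A and TUBA1C had the same 24 bases as TUBA1B, and TUBB6 the same as TUBB3. The tail codons of 3 beta genes are shown because they are where isotypes usually part, and because near-identical genes share reads. In the last 60 coding bases, capitals mark positions that differ from TUBB2A.
TUBB2A: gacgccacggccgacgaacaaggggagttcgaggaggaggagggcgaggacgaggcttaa
TUBB2B: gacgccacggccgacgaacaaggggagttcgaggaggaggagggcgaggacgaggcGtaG
TUBB4B: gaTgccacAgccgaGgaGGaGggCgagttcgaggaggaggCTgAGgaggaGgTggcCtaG
Between TUBB2A and TUBB2B 2 of these bases differ, and between TUBB2A and TUBB4B 15.

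Over the whole coding sequence TUBB2A and TUBB2B were 98.1% identical, TUBA1A and TUBA1B 97.2%, TUBA1B and TUBA1C 96.8%, and TUBG1 and TUBG2 94.7%. The coding sequences of the beta isotypes among the 10 genes were less alike, between 81.0% (TUBB and TUBB6) and 87.7% (TUBB2A and TUBB3). Of all 150-base windows of the main transcript, the length of a read, 49.4% in TUBB2A also occur in a transcript of another gene, above all TUBB2B, against 19.1% in TUBA1B, 6.91% in TUBA1A, 6.77% in TUBA1C, 6.22% in TUBG1 and 2.50% in TUBB. TUBB3 had 88.7%, shared above all with the MC1R readthrough transcript that runs through TUBB3 (ENSG00000198211), whose own row reached at most 0.343 FPKM. TUBA4A, TUBB4B and TUBB6 had 0 shared windows of that length. The values of genes with shared windows, above all TUBB3, TUBB2A, TUBB2B and TUBA1B, are therefore uncertain, since the counting could divide shared reads among them.

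The depth of the libraries is not given with the FPKM values (fragments scaled to gene length and to the mapped fragments of the library). Low values were searched for a whole-read step, and between 34.9% and 40.3% of them lay within 0.1 of a whole multiple of the best step, where 20% would by chance, so no depth was taken from them. ARHGEF2, the target of the hairpin, had 13.0, 14.4 and 13.9 FPKM in the shNC libraries and 4.25, 4.004 and 4.82 FPKM in the shARHGEF2 libraries. Its level was lower in every knockdown library, and it fell by 1.47 on log2(FPKM + 1) (standard error 0.11, adjusted p = 0.00244 in limma). Its mean FPKM in shARHGEF2 was 0.316 of the shNC mean. Of 20 genes that mark hepatocytes or hepatoma cells 12 were found in the table, and their levels went against the label: VTN reached 6.60 FPKM and RBP4 0.907 FPKM, while the other 10, AFP, APOA1, HNF4A and SERPINA1 among them, stayed at 0.248 FPKM or less. The other 8 were not analysed here. Of 6 epithelial and 6 mesenchymal markers, 4 each had a mean of at least 0.5 FPKM. EPCAM and CDH1 were not among them (at most 0.0547 and 0.0433 FPKM), while KRT18 reached 216 FPKM and VIM 188 FPKM. The identity of the cells was not tested. Libraries also differed along GC content within both groups (Spearman's rho across 12231 genes between a library's deviation and GC content from -0.458 to 0.565).

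All 10 tubulin genes had values in all 6 libraries and passed the filter of a mean of at least 0.5 FPKM. FPKM is per length, so levels of different genes can be set side by side. In the order of the deposited means over 6 libraries, TUBB came first at 734 FPKM, followed by TUBA1B (491), TUBB4B (255), TUBA1C (197), TUBG1 (108), TUBA4A (86.8), TUBA1A (27.9), TUBB2A (23.9), TUBB6 (17.5) and TUBB3 (10.5). TUBB was number 50 of the 12291 genes tested by mean FPKM and TUBA1B number 75. Neighbours in this order did not overlap over the 6 libraries, except TUBA1A with TUBB2A, where TUBA1A was above in 3 of 6 libraries, and TUBB2A with TUBB6, where TUBB2A was above in 5 of 6. The main isotypes in these libraries were thus TUBB and TUBB4B for beta and TUBA1B and TUBA1C for alpha, all of them widely used genes. TUBB3, best known from neurons, was the lowest, and it was measured beside a list of neuronal genes of which 8 rows were found and none exceeded 0.710 FPKM.

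The order depends on which length divides the fragments. The deposited gene values of most genes with several transcripts fitted division by a length near that of all exons of the gene's listed transcripts combined. This length was 3574 bases for TUBA1B, whose main coding transcript has 1627, and 4430 bases for TUBB3, whose main coding transcript has 1769. For TUBB (3208 against 2670 bases) and TUBB2A (1748 against 1595) the lengths are closer. Per length of the main coding transcript TUBA1B came first at 1078 FPKM and was above TUBB (882 FPKM) in 6 of 6 libraries, although the ranges over all libraries overlapped. TUBB3 (26.3 FPKM) and TUBB2A (26.2 FPKM) then could not be separated, each being above the other in 3 of 6 libraries, and neither could TUBG1 (162 FPKM) and TUBA4A (159 FPKM). The summed alpha-tubulin level was below the summed beta-tubulin level as deposited, with an alpha to beta ratio of 0.774 ± 0.0441 (SD, n = 3) in shNC, and above it per main transcript, with a ratio of 1.24 ± 0.0709 (SD, n = 3). Ratios between the 2 groups of libraries for a single gene are the same on both scales.

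**Figure D1:**
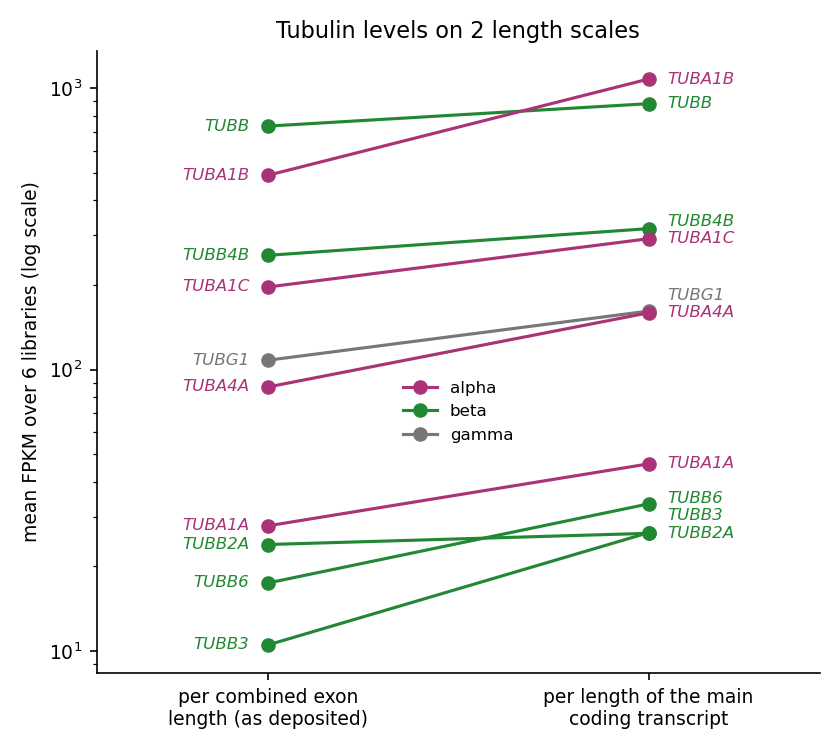
Mean FPKM of the 10 tubulin genes over the 6 libraries on a log axis, per combined exon length as deposited (left) and per length of the main coding transcript (right), with a line for each gene coloured by alpha, beta or gamma. TUBA1B passes from 491 to 1078 FPKM and above TUBB (734 and 882 FPKM), and TUBB3 joins TUBB2A at about the same level.

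To see whether tubulin mRNA levels differed when ARHGEF2 was lowered, the groups were compared with limma on log2(FPKM + 1) over the 12291 genes that passed this filter, and those with an adjusted p under 0.05 count as called. None of the 10 tubulin genes was called, while 34 genes were called in the whole table (0.277% of the genes tested, 0.195% on the higher and 0.0814% on the lower side). At an unadjusted p under 0.05 in limma there were 3 of 10 (13.7% of all genes), TUBB2A on the higher side (8.1% of all genes) and TUBA1B and TUBB on the lower side (5.55% of all genes). The fitted log2 difference was above 0 for 4 genes and below 0 for 6, with a median of -0.05 beside -0.0016 over all genes tested. For 4 of the 10 the 2 ranges were apart (20.5% of all genes), namely TUBB2A, TUBB3 and TUBG1 (higher, 11.3% of all genes) and TUBB (lower, 9.17% of all genes). A single gene cannot go below p = 0.1 in the exact two-sided permutation test of 3 libraries against 3. These are bulk libraries, in which fewer cells with a transcript and less of it per cell cannot be told apart.

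**Figure D2:**
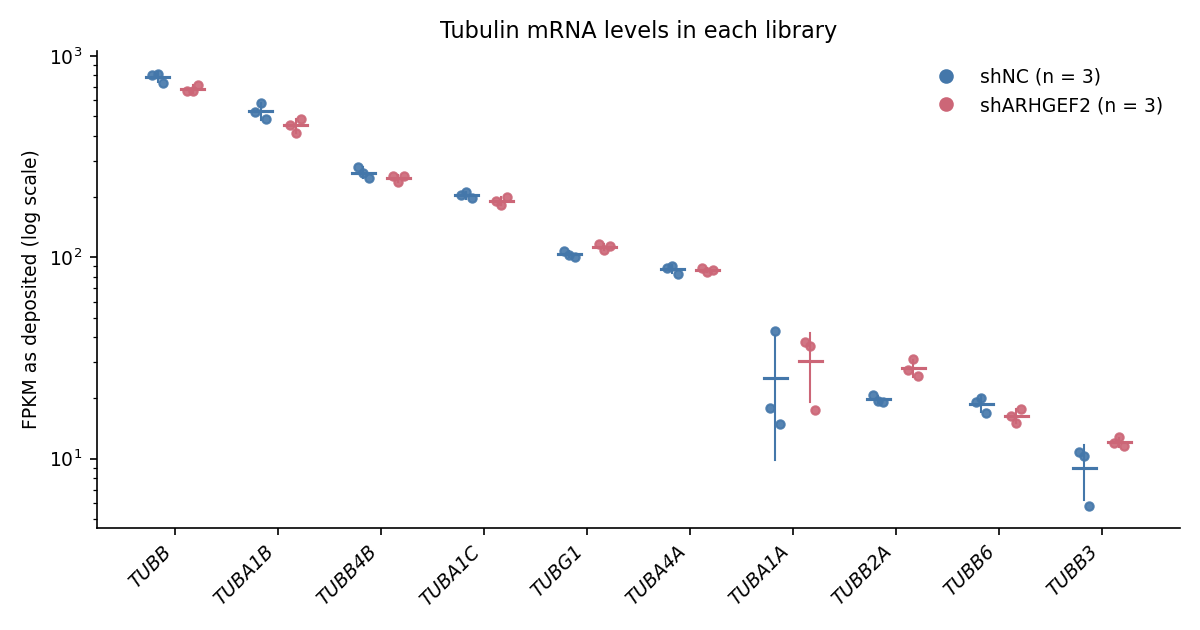
FPKM as deposited on a log axis for each of the 10 tubulin genes, with a point for each library, a horizontal line at the group mean and a vertical line of ± 1 SD (n = 3 per group). The 3 shARHGEF2 points of TUBB2A (25.8 to 31.2 FPKM) stand above the shNC points (19.2 to 20.6 FPKM), and the points of TUBA1A are spread widely in both groups.

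Among the alpha-tubulins, TUBA1B (ENSG00000123416, chromosome 12 of GRCh38 from 49127782 to 49131397, minus strand) is the most abundant. It had 527, 584 and 483 FPKM in the shNC libraries and 451, 413 and 488 FPKM in the shARHGEF2 libraries. The shARHGEF2 values were mostly lower, but replicate 3 of shARHGEF2 exceeded replicate 3 of shNC, so the groups overlapped. The group means were 531 ± 50.4 and 451 ± 37.2 FPKM (SD, n = 3 each), a log2 difference of -0.24 (95% confidence interval -0.47 to -0.01, adjusted p = 0.357 in limma).

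TUBA1C, the other abundant alpha gene, had 203, 210.4 and 196 FPKM in shNC and 191, 182 and 199 FPKM in shARHGEF2 libraries. The ranges overlapped, and the log2 difference was -0.09 (95% confidence interval -0.27 to 0.09, adjusted p = 0.674 in limma), or -0.059 without shARHGEF2 replicate 2. TUBA4A, whose gene does not encode the tyrosine that ends most alpha-tubulins, had 88.8, 90.1 and 82.5 FPKM against 88.5, 84.6 and 86.4 FPKM. The shARHGEF2 values lay within the range of the shNC values, with a log2 difference of -0.01 (95% confidence interval -0.19 to 0.17, adjusted p = 0.982 in limma).

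TUBA1A, an alpha gene prominent in developing neurons, stood at 2 levels that crossed the groups. It had 17.9, 43.0 and 14.9 FPKM in the shNC libraries and 37.7, 36.4 and 17.3 FPKM in the shARHGEF2 libraries. High values occurred in shNC replicate 2 and shARHGEF2 replicates 1 and 2, low values in the other 3. The spread within groups was 48.7% of the mean, against 3.47% to 18.9% for the other 9 genes. The log2 difference of 0.34 therefore had a 95% confidence interval from -0.95 to 1.62 (adjusted p = 0.843 in limma), and it lay between 0.05 and 0.79 when each library was left out. The 3 libraries with the high level had GC trends of -0.458, 0.565 and -0.293 (rho, in the order named). With the GC content trend removed, the log2 difference of TUBA1A was 0.34 (standard error 0.47, beside 0.51 in the main fit). The part of GC content in the split itself was not tested. TUBA1A lies on the minus strand of chromosome 12 from 49184796 to 49189324 and overlaps the first bases of TUBA1C, on the plus strand from 49188736 to 49274603. The libraries kept the strand, but whether the counting used it is not given in the sources used here.

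Among the beta-tubulins, TUBB (ENSG00000196230, chromosome 6 from 30720201 to 30725426, plus strand) is the most abundant. It had 799.6, 815 and 731 FPKM in the shNC libraries and 672, 665 and 719 FPKM in the shARHGEF2 libraries. The 3 knockdown values were all lower than the 3 control values, and the nearest pair was shNC replicate 3 and shARHGEF2 replicate 3. The means were 782 ± 44.6 and 685 ± 29.2 FPKM (SD, n = 3 each), a log2 difference of -0.19 (95% confidence interval -0.38 to -0.0017, adjusted p = 0.363 in limma). After quantile normalization the difference was -0.08 (adjusted p = 0.663 in limma). TUBB4B, the second beta gene, had 282, 261 and 248 FPKM against 252, 235 and 252 FPKM. The groups overlapped, and the log2 difference was -0.09 (95% confidence interval -0.28 to 0.10, adjusted p = 0.685 in limma). It was -0.044 without shNC replicate 1 and -0.059 without shARHGEF2 replicate 2. TUBB6, a minor beta isotype, had 19.2, 20.1 and 16.8 FPKM against 16.2, 14.9 and 17.6 FPKM. Its ranges overlapped too, with a log2 difference of -0.19 (95% confidence interval -0.43 to 0.06, adjusted p = 0.486 in limma).

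TUBB2A (ENSG00000137267, chromosome 6 from 3153669 to 3157526, minus strand) gave the smallest p of the 10 genes. It had 20.6, 19.3 and 19.2 FPKM in the shNC libraries and 27.5, 31.2 and 25.8 FPKM in the shARHGEF2 libraries. All shARHGEF2 libraries lay above all shNC libraries, with a clear gap. The means were 19.7 ± 0.792 and 28.2 ± 2.75 FPKM (SD, n = 3 each), a log2 difference of 0.49 (95% confidence interval 0.26 to 0.72, unadjusted p = 9.56e-04, adjusted p = 0.114 in limma). It was number 101 by p among the genes tested and did not pass the threshold. Its neighbour and near copy TUBB2B (ENSG00000137285, chromosome 6 from 3224261 to 3231730, minus strand), which is not one of the 10, had 7.94, 6.81 and 8.04 FPKM against 11.2, 11.6 and 12.2 FPKM. TUBB2B too was higher in every shARHGEF2 library (11.3% of all genes). Its log2 difference was 0.56 (95% confidence interval 0.32 to 0.80, adjusted p = 0.0918 in limma). The 2 genes share reads, so they are not independent. Their FPKM are divided by different lengths, so the sum too depends in part on how shared reads were divided. The sum had 28.5, 26.1 and 27.2 FPKM in shNC and 38.8, 42.8 and 37.9 FPKM in shARHGEF2 libraries, and the ratio of TUBB2A to TUBB2B was 2.60 ± 0.223 and 2.42 ± 0.283 (SD, n = 3 each), which overlapped.

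The promoters of these neighbours are shown because both genes stood higher in the same libraries. Each runs from 250 bases before to 50 bases after the start site in RefSeq (GRCh38.p14, minus strand, chr6:3157495-3157794 for TUBB2A and chr6:3227604-3227903 for TUBB2B). Capitals mark matches on either strand to CCAAT (the CCAAT box), to GGGCGG (the GC box) and to TATAA (the TATA box).
TUBB2A: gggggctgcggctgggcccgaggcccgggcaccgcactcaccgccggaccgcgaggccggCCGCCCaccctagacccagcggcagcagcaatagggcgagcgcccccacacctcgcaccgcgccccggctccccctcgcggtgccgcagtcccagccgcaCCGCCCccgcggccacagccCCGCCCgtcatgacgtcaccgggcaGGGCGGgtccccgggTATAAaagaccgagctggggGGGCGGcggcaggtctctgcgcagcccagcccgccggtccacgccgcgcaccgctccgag
TUBB2B: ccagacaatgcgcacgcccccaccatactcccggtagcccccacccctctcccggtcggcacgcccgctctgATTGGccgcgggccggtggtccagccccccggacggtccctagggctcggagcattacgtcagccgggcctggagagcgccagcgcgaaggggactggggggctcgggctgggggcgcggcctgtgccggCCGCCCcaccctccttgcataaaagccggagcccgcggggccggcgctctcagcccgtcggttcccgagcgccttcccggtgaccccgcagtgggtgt
Both windows held GGGCGG, which 44.95% of all 35116 promoters of this length hold on either strand. Between the pair, the window of TUBB2A alone held TATAA, found in 20.4% of promoters, and that of TUBB2B alone held CCAAT, found in 34.6%. Over the 10 tubulin promoters, CCAAT occurred in 5, GGGCGG in 5, TATAA in 3, TGANTCA (7.71% of promoters) in 1, GGAATG (14.0%) in 2 and the CArG box (1.29%) in 0.

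TUBB3 (ENSG00000258947) had 10.8, 10.3 and 5.81 FPKM in the shNC libraries and 11.98, 12.7 and 11.5 FPKM in the shARHGEF2 libraries. The groups did not overlap, and shNC replicate 3 lay far below the other 5 libraries. The log2 difference was 0.43 (95% confidence interval -0.02 to 0.89, adjusted p = 0.391 in limma), and without shNC replicate 3 it was 0.18 (adjusted p = 0.472 in limma).

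TUBG1 encodes the gamma-tubulin of the ring complex. It had 107, 102 and 101 FPKM in shNC and 116, 109 and 113 FPKM in shARHGEF2 libraries. The groups came close without overlapping, with a log2 difference of 0.12 (95% confidence interval -0.05 to 0.30, adjusted p = 0.541 in limma). TUBG2, its near copy on the same chromosome and not one of the 10, had 11.1, 9.89 and 11.6 FPKM against 13.5, 14.7 and 13.3 FPKM, with a log2 difference of 0.33 (95% confidence interval 0.09 to 0.56, adjusted p = 0.229 in limma). Both gamma genes were higher in every shARHGEF2 library (11.3% of all genes), and neither was called. They share 6.22% and 5.65% of their 150-base windows, so they are not fully independent.

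**Figure D3:**
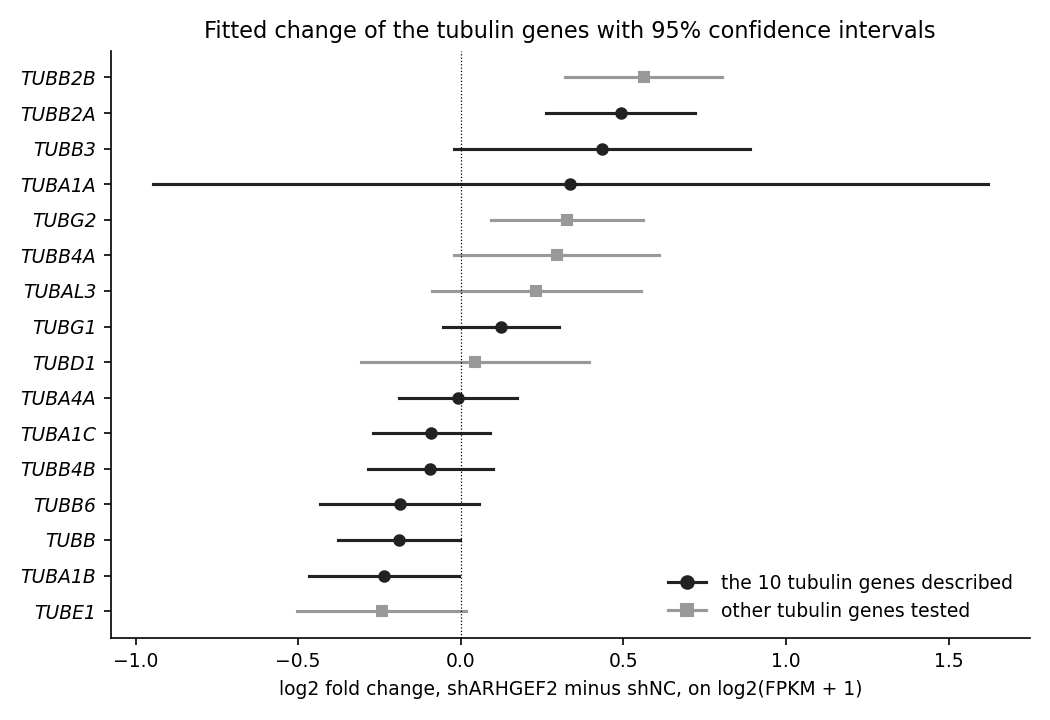
Fitted log2 fold change (shARHGEF2 minus shNC, on log2(FPKM + 1)) with its 95% confidence interval for the 10 tubulin genes (black circles) and the 6 other tubulin genes tested (grey squares). TUBB2A (0.49) and TUBB2B (0.56) lie farthest to the right, TUBA1B (-0.24) and TUBB (-0.19) lie left of 0 with intervals that end close to it, and the interval of TUBA1A spans more than any other.

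The make-up of the tubulin pools was compared next. Summed over the 4 alpha genes, the deposited values were 836, 927 and 776 FPKM in shNC and 768, 717 and 790.1 FPKM in shARHGEF2 libraries. Summed over the 5 beta genes, they were 1132, 1125 and 1021 FPKM against 979.8, 959 and 1026 FPKM. Both sums overlapped between the groups, and the means of shARHGEF2 stood at -10.4% and -9.54% relative to the shNC means, beside a pooled spread of 7.09% and 4.60% (SD). The alpha to beta ratio was 0.774 ± 0.0441 in shNC and 0.767 ± 0.0186 in shARHGEF2 cells (SD, n = 3 each) and overlapped as well.

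Within the beta pool, TUBB made up 71.6% ± 0.899 in shNC and 69.3% ± 0.753 in shARHGEF2 cells (SD, n = 3 each), and the groups did not overlap. TUBB2A had 1.80% ± 0.0837 against 2.86% ± 0.371 and TUBB3 had 0.812% ± 0.211 against 1.22% ± 0.102, both without overlap, while TUBB6 (1.71% ± 0.0691 and 1.64% ± 0.0792) and TUBB4B (24.1% ± 0.878 and 24.9% ± 0.699) overlapped. The TUBB3 share was 0.954%, 0.913% and 0.570% in shNC replicates 1, 2 and 3, so its shNC mean was pulled down by replicate 3. Within the alpha pool, TUBA1B had 62.7% ± 0.413 against 59.4% ± 2.11 and TUBA4A 10.3% ± 0.527 against 11.4% ± 0.446, again without overlap. Shares of a pool move against each other by construction, and no p-value was given to them. How often such shares would be free of overlap was not measured. TUBG1 amounted to 5.34% ± 0.327 of the summed alpha and beta level in shNC and to 6.46% ± 0.217 in shARHGEF2 cells (SD, n = 3 each), without overlap. No test was run on this share or on the summed level.

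**Figure D4:**
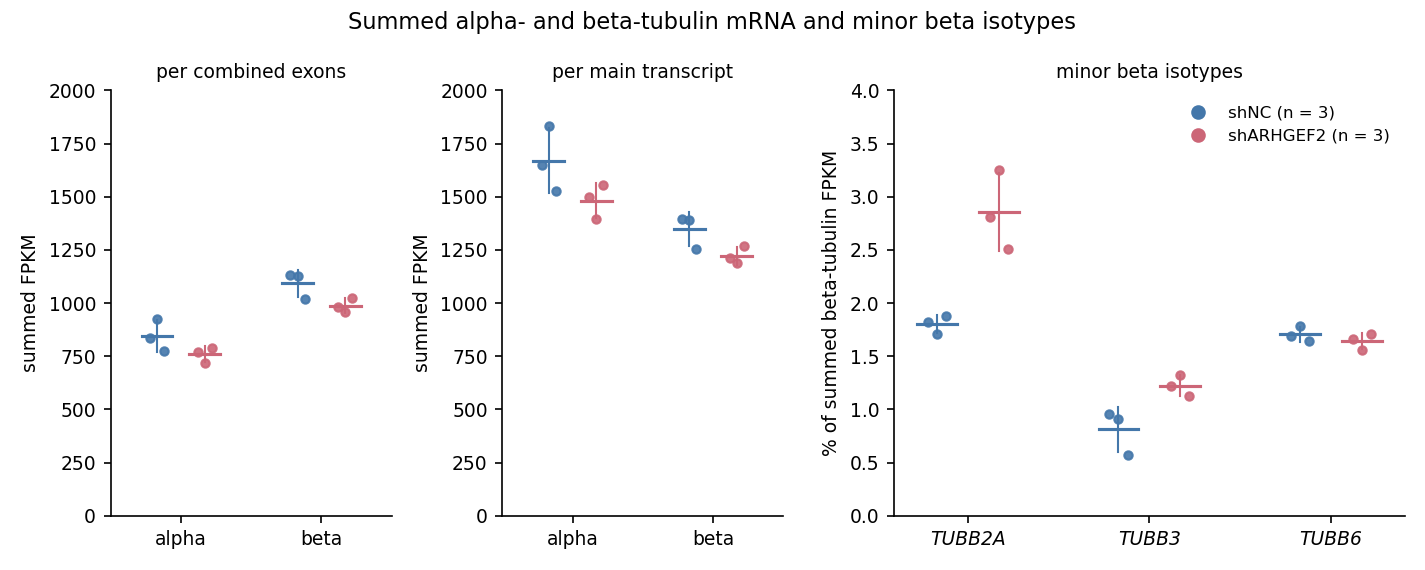
Summed alpha- and beta-tubulin FPKM in each library, per combined exon length as deposited (left) and per main coding transcript (middle), and the share of TUBB2A, TUBB3 and TUBB6 in the deposited beta sum (right), with group means and ± 1 SD (n = 3 per group). The summed levels of the groups overlap on both scales, and the shares of TUBB2A and TUBB3, but not that of TUBB6, are higher in all shARHGEF2 libraries.

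The likeness of profiles was measured by the root mean square difference of the centred log2(FPKM + 1) values over the 6 libraries, where a small value means alike. TUBA1B and TUBB6 were each other's nearest among the 10 genes (0.0348), although one is alpha and one beta, and TUBB was nearest to TUBB6 (0.0430). TUBA1C and TUBB4B also paired (0.0531). TUBA1A stayed apart from all others, with 0.496 to its nearest gene, TUBB3. Over all genes tested, TUBA1B was nearest to the noncoding gene AC015922 (ENSG00000265519, 0.0125), the pseudogene AC078819 (0.0130) and TOMM22 (0.0277), and TUBB to KDM7A-DT (0.0199), MRPL16 (0.0203) and FIBIN (0.0269). These are the closest of all genes tested over 6 libraries and are given as a description.

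The remaining tubulin genes were low. Of 13 others sought, 11 were in the table and 6 reached the filter, of which 0 were called. At an unadjusted p under 0.05 in limma there were 2 (13.7% of all genes), TUBB2B and TUBG2, both on the higher side (8.1% of all genes). TUBB4A, a brain-type beta gene, had 10.9, 8.31 and 10.4 FPKM against 13.3, 10.5 and 13.3 FPKM, which overlapped. TUBD1, the delta gene, did not exceed 1.26 FPKM. TUBE1, the epsilon gene, had 0.715, 0.986 and 0.792 FPKM against 0.417, 0.602 and 0.623 FPKM, lower in every shARHGEF2 library (9.17% of all genes). It was not called (log2 difference -0.24, adjusted p = 0.400 in limma). The 1 FPKM added before the log draws the difference of such low genes toward 0. The mean of TUBE1 in shARHGEF2 was 0.658 of its shNC mean. Of 13 tubulin pseudogenes 4 were tested and 0 were called. TUBBP1, a processed copy of TUBB, had 8.67, 8.41 and 8.75 FPKM in shNC and 7.11, 7.12 and 8.25 FPKM in shARHGEF2 libraries. It shares windows with TUBB and stood at 1.104% ± 0.0844 and 1.09% ± 0.0485 of the TUBB level (SD, n = 3 each), which overlapped.

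The genes that fold, modify and organise tubulin were examined with lists that hold none of the 10 genes. Of 22 tested genes for tubulin folding and autoregulation 0 were called, with a median log2 difference of -0.06. The 2 with the smallest p were ARL2, a small GTPase that acts with the tubulin cofactors, and TBCA, a cofactor that binds beta-tubulin. ARL2 had 56.7, 53.5 and 61.2 FPKM against 71.1, 70.4 and 66.5 FPKM (log2 difference 0.28, adjusted p = 0.229 in limma), and TBCA had 27.2, 24.3 and 26.3 FPKM against 20.2, 22.6 and 20.7 FPKM (log2 difference -0.28, adjusted p = 0.249 in limma). TTC5, the reader of the nascent tubulin start, was named after its values were seen. It had 1.77, 1.59 and 1.55 FPKM against 1.19, 1.18 and 1.33 FPKM, lower in every shARHGEF2 library (9.17% of all genes). It was not called (log2 difference -0.24, adjusted p = 0.377 in limma). At this low level the added 1 FPKM again draws the difference toward 0, and the ratio of its means was 0.752.

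Of 11 tested genes of the gamma-tubulin ring complex 0 were called, with a median of -0.05 beside -0.0016 over all genes. MZT1, a small subunit of the complex, had 5.18, 4.97 and 5.52 FPKM against 7.06, 11.5 and 9.27 FPKM (log2 difference 0.70, adjusted p = 0.126 in limma). MZT2B, another small subunit, had 119, 101 and 109 FPKM against 100.2, 91.7 and 98.9 FPKM (log2 difference -0.17, adjusted p = 0.443 in limma), so these subunits lay on opposite sides. Of 11 tested tubulin-modifying enzymes 0 were called. ATAT1, the alpha-tubulin acetyltransferase, had 3.87, 3.28 and 3.83 FPKM against 4.98, 4.46 and 5.22 FPKM (log2 difference 0.34, adjusted p = 0.264 in limma), and HDAC6, a deacetylase that removes the same mark, had 4.92, 4.52 and 5.76 FPKM against 6.81, 6.32 and 5.91 FPKM (log2 difference 0.28, adjusted p = 0.361 in limma).

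Of 24 tested microtubule-binding and dynamics genes 0 were called, 16 had a fitted difference above 0, beside 6102 of all 12291 genes tested, and the median was 0.08. CAMSAP3, which caps the minus ends of microtubules, had 5.98, 5.40 and 6.86 FPKM against 9.74, 9.89 and 8.73 FPKM (log2 difference 0.57, adjusted p = 0.115 in limma). KIF2C, a kinesin that takes microtubule ends apart in mitosis, had 16.2, 18.5 and 18.1 FPKM against 23.0, 27.4 and 25.5 FPKM (log2 difference 0.49, adjusted p = 0.117 in limma). Both were higher in every shARHGEF2 library, as were 5 of the 24 in all (11.3% of all genes). The pair was named for its small p, so this separation is partly built into the choice. Of 12 proliferation markers 11 had a fitted difference above 0, beside 6102 of all 12291 genes, with a median of 0.14 and 0 called, and their summed level lay between 350.2 and 379 FPKM in shNC and between 356 and 419 FPKM in shARHGEF2 libraries. The part of proliferation in the values of KIF2C and the tubulin genes was not tested. Of 14 tested genes around ARHGEF2 and its tether to microtubules, 1 was called, ARHGEF2 itself.

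**Figure D5:**
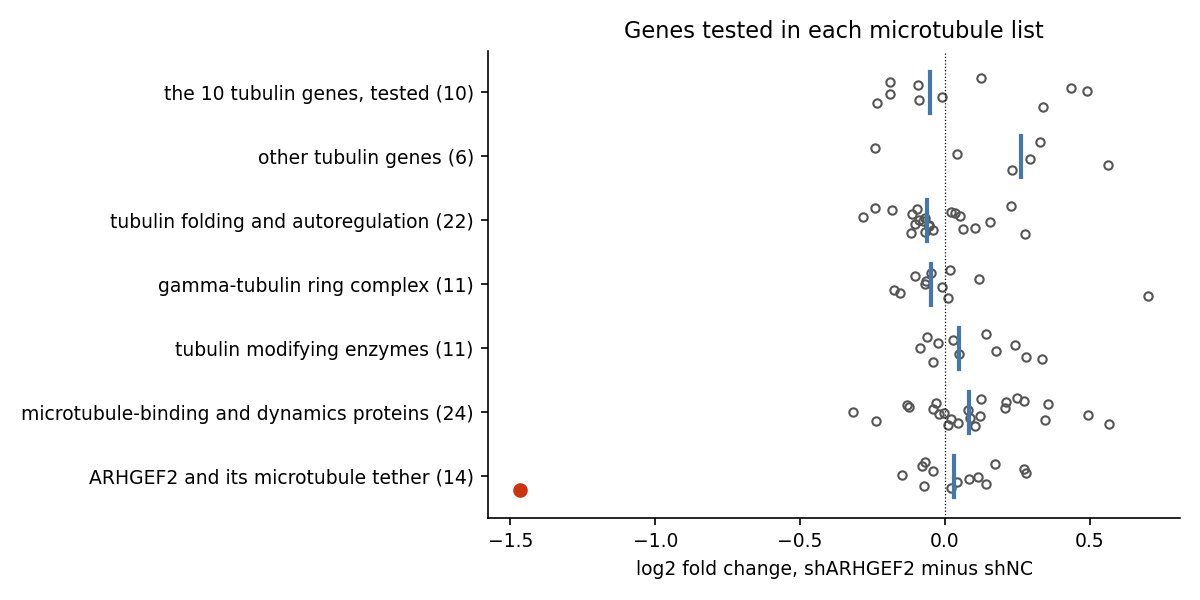
Fitted log2 fold change (shARHGEF2 minus shNC) of every gene tested in each of the 7 microtubule lists, with the number of genes tested in brackets, a blue bar at the median and a filled red point for a gene called at an adjusted p under 0.05. ARHGEF2 at -1.47 is the 1 called gene, and the medians lie between -0.06 and 0.26.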

How the data were processed

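Poly(A) RNA libraries that kept the strand and carried molecular identifiers were sequenced from 3 shNC and 3 shARHGEF2 samples. Per the labels, the authors' processing notes name cutadapt 1.9, HISAT2 2.0.4, UMI-tools, StringTie 1.3.4d, DESeq2 and edgeR, and the build hg19. Of the transcripts listed, 94.7% were found in GENCODE 29 (GRCh38), which was used for positions, lengths and sequences, and the difference in build was not resolved. The deposited values used are FPKM for each library. For 459 of 496 genes with several transcripts examined, the last printed digits of FPKM in all 6 libraries fitted division by one whole-number length (tolerance 0.01) within 25% of the combined exon length. Among fitting lengths the one nearest the combined exon length was taken. Values printed with few decimals fit every length, and such genes were not counted apart. The deposited ratio of mean FPKM, its log2 value, the p-values and adjusted p-values are the authors' own comparison and were not used.

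Groups were compared with limma 3.58.1 (R 4.3.3, statmod 1.5.0), with trended and robust variances, on log2(FPKM + 1), with Benjamini-Hochberg adjustment over the 12291 genes whose mean reached 0.5 FPKM. Confidence intervals are for single genes, unadjusted. Count tests were not run, since FPKM are not counts. The tests were also run on simulated data. The share of true differences called there is not given here, so 0 called genes do not show that levels were equal. Exact permutation tests were two-sided. Python 3.11.15, pandas 2.3.3, numpy 2.4.6, Biopython 1.88 and matplotlib 3.10.9 handled tables, alignments and plots. All 10 tubulin genes are named. Of each microtubule or pseudogene list the rule was to name the called genes or, with 0 called, the 2 with the smallest p. TUBB4A, TUBD1, TUBE1 and TTC5 were named beyond this rule, and the pseudogene TUBAP2, which it covers, was not described. The members and lists were chosen with earlier results of these data known. The alternatives tried were other filters, a pseudocount of 0.1 FPKM, a replicate block, quantile normalization, median-of-ratios scaling, limma without trend or robust variances and each library left out. Removal of the GC content trend (loess, span 0.3) and the main transcript length were added after the data were seen.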

Additional observations from a re-analysis of the deposited data

How the results depend on the processing

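None of the 10 tubulin genes was called under any of the 14 alternatives, and their median log2 difference stayed below 0, between -0.082 and -0.019 when each library was left out. The number of the 10 genes with an unadjusted p under 0.05 in limma was less steady. It lay between 1 (after quantile normalization, for example) and 4 (without shNC replicate 3). The adjusted p of TUBB2A in limma lay between 0.0988 and 0.399 over the alternatives. TUBA4A was the 1 tubulin gene whose difference turned, with values from -0.048 to 0.015 when each library was left out (0.0050 without shNC replicate 1, 0.015 without shNC replicate 2 and 0.0063 without shARHGEF2 replicate 2). The 34 genes called in the whole table became 0 with the replicate block, 1 with no filter beyond a value above 0, 54 with at least 1 FPKM in 3 or more libraries, 19 after quantile normalization, 7 with median-of-ratios scaling, 7 without trended and robust variances, 59 with the GC content trend removed, and between 6 and 102 with each library left out (13, 14 and 102 without shNC replicates 1, 2 and 3, and 12, 15 and 6 without shARHGEF2 replicates 1, 2 and 3). With the replicate block, 1976 genes had an unadjusted p under 0.05 in limma. The number of microtubule list genes called was 1 (ARHGEF2) and became 0 with the replicate block and with no filter, where ARHGEF2 had log2 differences of -1.47 and -1.47 (adjusted p = 0.0716 and 0.0701 in limma). Residuals of libraries with the same number correlated at 0.184, 0.159 and -0.105, and those with different numbers between -0.221 and 0.0683. With 3 libraries per group, these values cannot decide whether the numbers pair the libraries. The replicate block gave TUBB2A an adjusted p = 0.188 in limma. The summed alpha and beta levels differed by -14.0% to -5.95% and by -12.4% to -7.89% with each library left out. Depth is unknown, so no counting interval was given.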
